A study of Strigamia maritima with 9 samples.

Results

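In the genome of the coastal centipede *Strigamia maritima*, 1956 places on unplaced AFFK contigs were called as binding sites of each of CopiaMBD1, CopiaMBD2 and CopiaMBD3 on native DNA. These places are called contig regions here. They were chosen by the native peak calls themselves: the 3 native lists were pooled, peaks sharing at least 1 bp were merged, and merged regions holding a peak from each list on a sequence named AFFK were kept. The lists gave 21205 merged regions in all, 7516 of them on contigs. The other 2600 regions with peaks of all 3 domains lay on JH scaffolds and are called scaffold regions below, and 5560 contig regions had peaks of only 1 or 2 domains.

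A methyl-CpG binding domain is a small protein fold that recognises a CG dinucleotide whose cytosines are methylated on both strands. In animals it is best known from proteins that recruit repressors to methylated DNA. Copia elements are retrotransposons with long terminal repeats, which spread by copying their RNA into DNA, and the names of the 3 domains tie them to that family. Unplaced contigs are pieces of an assembly that were not joined to a longer scaffold, and repeated sequence is a common reason for that in animal genomes. Whether the contigs here hold repeats, genes or Copia copies was not analysed here, and no genome sequence was used.

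Binding was read by DAP-seq, in which tagged protein is mixed with purified, adapter-ligated DNA and the captured fragments are sequenced. The DNA came from adult tissue of the strain behind the genome assembly and was sheared to a mean of 200 bp. Native libraries were made with CopiaMBD1, CopiaMBD2 or CopiaMBD3, each translated in vitro and fused to the HaloTag capture tag, and with the HaloTag alone as control. Amplified-DNA libraries used the same proteins and control on DNA that first passed through 11 PCR cycles, which leave copies without the methyl marks. All these libraries were amplified for 20 cycles after capture. DNA in such an assay carries no histones, and DNA of whole adults mixes all cell types.

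Each group was 1 library, so no comparison has a replicate and no test across samples could be run. Intervals are exact Clopper-Pearson 95% intervals that cover counting error only, and regions of 1 library are not replicates of each other. The native calls used 2239324, 2224965 and 2044955 tags for CopiaMBD1, CopiaMBD2 and CopiaMBD3. The amplified-DNA calls used 3685424, 3685424 and 3488873 tags. Fold enrichments, pileups and q-values are the authors' values for single peaks, and where a domain had several peaks in a region its strongest by fold was taken. All 3 native lists were called against the same HaloTag-only library, so their values at a region are not independent.

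Regions with all 3 domains made up a larger share of bound places on contigs than on scaffolds. The share was 26.0% of contig regions of any class (1956 of 7516, interval 25.04 to 27.03) and 19.0% of scaffold regions of any class (2600 of 13689, interval 18.3 to 19.7). Because native peaks define both classes, this is a description. Contigs held 42.9% of the regions with all 3 domains and 35.4% of all merged regions. The contig regions covered 790.0 kb and had a median width of 341 bp, with quartiles of 260 and 475 bp. Scaffold regions had a median width of 365 bp, and contig regions of 1 or 2 domains one of 192 bp.

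CopiaMBD1 had the largest part of its peaks there. The contig regions took in 27.9% of CopiaMBD1 peaks (2085 of 7461), 14.9% of CopiaMBD2 peaks (2093 of 14001) and 13.1% of CopiaMBD3 peaks (2057 of 15714). These shares follow the lengths of the lists, since nearly equal numbers of peaks were taken from each. Most regions were simple: 1837 regions held 1 CopiaMBD1 peak, 1829 held 1 CopiaMBD2 peak and 1860 held 1 CopiaMBD3 peak, and no domain had more than 4 peaks in a region.

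The strongest peaks of each list were concentrated in these regions. Of the 100 peaks of highest fold in each list, 57 for CopiaMBD1, 60 for CopiaMBD2 and 58 for CopiaMBD3 lay in contig regions with all 3 domains. Scaffold regions with all 3 domains held 34, 35 and 36, which left 9, 5 and 6 top peaks for every other place. Fold enters no part of the selection rule directly, but it comes from the same peak calls, so these counts are given without a test.

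Set against the HaloTag-only control, the median fold in contig regions was 4.64 for CopiaMBD1 (quartiles 3.73 and 5.72, range 1.42 to 14.3). For CopiaMBD2 it was 5.78 (4.46 and 7.77, range 1.63 to 22.5), and for CopiaMBD3 it was 6.79 (4.95 and 9.14, range 1.71 to 34.3). Scaffold regions had medians of 4.49, 5.37 and 6.47 for the 3 domains in the same order, and contig regions of 1 or 2 domains had 4.18, 4.58 and 4.98. A call in all 3 lists favours stronger sites, so the contrast with regions of 1 or 2 domains is not independent of the rule. The fold distributions of contig and scaffold regions overlapped over nearly their whole width, as the plot of fold by domain shows. At the top the contig regions were more numerous: all 3 domains reached a fold of at least 10 in 19 contig regions (0.971%, interval 0.586 to 1.51) and in 7 scaffold regions (0.269%, interval 0.108 to 0.554).

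**Figure D1:**
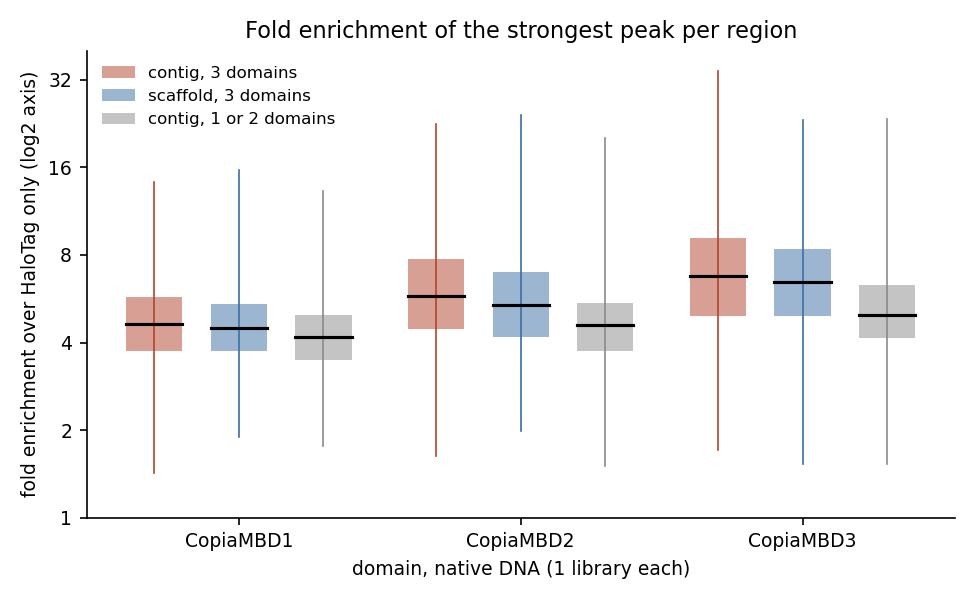
Fold enrichment over the HaloTag-only control (log2 axis) of the strongest peak of each domain on native DNA, for contig regions with all 3 domains, scaffold regions with all 3 domains and contig regions with 1 or 2 domains. Boxes span the quartiles, black lines mark medians and thin lines the full range over regions of 1 library. Medians of 4.64, 5.78 and 6.79 in contig regions with all 3 domains stand beside 4.49, 5.37 and 6.47 in scaffold regions. The selection rule favours higher folds with all 3 domains than with 1 or 2.

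The depth behind these folds differed more than the folds did. Median pileup, the number of fragments over the summit, was 20, 26 and 29 in contig regions for CopiaMBD1, CopiaMBD2 and CopiaMBD3, and 17, 21 and 24 in scaffold regions. Upper quartiles were 33.25, 44 and 47 in contig regions and 21, 27 and 32 in scaffold regions. Median −log10 q was 7.16, 12.4 and 16.3 in contig regions, against 5.69, 8.80 and 12.5 in scaffold regions.

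Ranked by the weakest of its 3 folds, the leading contig region lay on AFFK01017074 (4 to 471). Its folds were 13.6 for CopiaMBD1, 17.7 for CopiaMBD2 and 26.0 for CopiaMBD3, from pileups of 38, 70 and 68 fragments, and its 3 summits lay within 13 bp. Its ranks among the 1956 contig regions were 3, 9 and 5 for the 3 domains.

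AFFK01002987 (180 to 462) followed with folds of 13.3, 18.4 and 15.9 from deeper pileups of 79, 110 and 111. On AFFK01002801 (582 to 1020) the folds were 12.7, 16.9 and 14.8. The region on AFFK01002349 (109 to 530) had the highest CopiaMBD2 fold of all contig regions, 22.5, beside 12.5 for CopiaMBD1 and 15.3 for CopiaMBD3. In these 3 regions CopiaMBD2 had the highest of the 3 folds. On AFFK01002987 and AFFK01002801, though, CopiaMBD3 had the larger pileup, 111 against 110 and 103 against 84. Its control level in both was 3.66 times the lowest of its list, against 2.80 and 2.24 times for CopiaMBD2.

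CopiaMBD3 stood highest on AFFK01005768 (826 to 1054), with folds of 12.0, 14.9 and 20.8. It did so again on AFFK01019298 (2003 to 2342), with 11.6, 18.0 and 27.9, where the summits lay within 8 bp. On AFFK01004614 (3 to 221), at the very start of its contig, the folds were 11.8, 16.1 and 14.7. These 3 regions had control levels at or close to the lowest of each list.

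Among the remaining leaders, AFFK01010102 (484 to 784) had flatter folds of 11.1, 11.0 and 12.2. So did AFFK01006450 (542 to 1060), with 10.8, 11.1 and 12.1. AFFK01010994 (1 to 433) had 11.6, 18.0 and 11.2 with its 3 summits within 1 bp, and it was the only region of these 10 that also had an amplified-DNA peak, a CopiaMBD1 peak of fold 2.16.

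**Figure D2:**
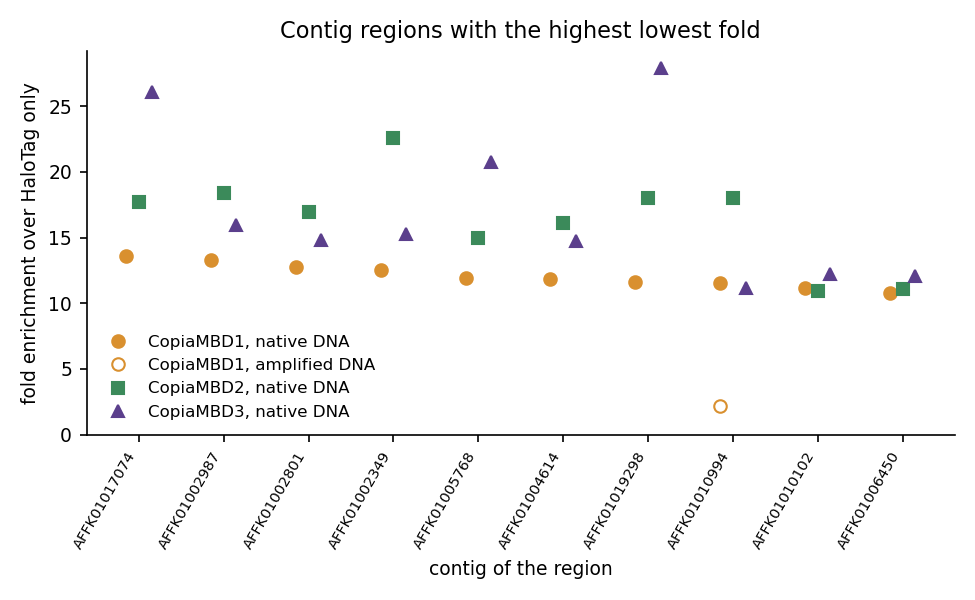
Fold enrichment over the HaloTag-only control for each domain in the 10 contig regions whose lowest fold was highest, ordered by that lowest fold; filled symbols are native-DNA peaks and the open symbol an amplified-DNA peak, 1 library each. The weakest native fold falls between 10.8 and 13.6 in all 10 regions, and the sole amplified-DNA peak, on AFFK01010994, has a fold of 2.16.

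The regions with the highest CopiaMBD1 and CopiaMBD3 folds were less even. AFFK01000617 (386 to 637) led for CopiaMBD1 with 14.3 and had 24.7 for CopiaMBD3, but 6.52 for CopiaMBD2. Its pileups were 85, 58 and 98, while the control level that MACS2 used was 2.69, 4.48 and 1.83 times the lowest of each list, so the CopiaMBD2 fold combined a smaller pileup with a higher control level. The control was sampled down separately for each call. AFFK01000331 (653 to 979) led for CopiaMBD3 with 34.3 and had 21.4 for CopiaMBD2, second among contig regions, and 9.81 for CopiaMBD1, where it ranked 35.

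Across contig regions the domains ordered sites alike in part. The fold of CopiaMBD1 had a Spearman's rho of 0.49 with that of CopiaMBD2 and of 0.46 with that of CopiaMBD3, and the last 2 domains gave 0.51. The 1956 points share libraries, contigs and the control. In the 832 contig regions whose control level was under 2 times the lowest in each list, the same pairs gave 0.47, 0.44 and 0.50. In scaffold regions rho was 0.31, 0.27 and 0.35 over 2600 regions. It was 0.37, 0.33 and 0.40 over the 1246 with control under 2 times the lowest in each list. Over the 147 at 3 times or more in each list it was 0.51, 0.47 and 0.44. The part of the shared control in these values was not tested. The 200 contig regions of highest fold for each domain, out of 1956, were also compared. CopiaMBD1 and CopiaMBD2 had 81 in common, CopiaMBD1 and CopiaMBD3 71, and CopiaMBD2 and CopiaMBD3 80. All 3 domains had 45 in common. How many regions sets of this size share by size alone was not worked out, and no test was made.

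Some contig regions ranked high for a single domain, and the region with the widest rank lead of each domain is given here, picked after values were seen. AFFK01010397 (785 to 976) ranked 83 of 1956 for CopiaMBD1, with a fold of 8.39, but 1655 and 1754 for CopiaMBD2 and CopiaMBD3, with folds of 3.87 and 3.84. Its pileups of 58, 34 and 26 ran the same way. AFFK01000832 (516 to 821) ranked 297 for CopiaMBD2, with a fold of 8.96 from a pileup of 37, and 1839 and 1879 for CopiaMBD1 and CopiaMBD3, with folds of 2.74 and 3.15 from pileups of 21 and 18. AFFK01016467 (795 to 1098) ranked 283 for CopiaMBD3, with a fold of 11.0 from a pileup of 43, and 1729 and 1618 for CopiaMBD1 and CopiaMBD2, with folds of 3.15 and 3.98 from pileups of 18 and 23. In each of these 3 regions the sampled control level was also lowest in the list of the leading domain, at 3.23, 1.81 and 1.83 times the lowest of that list. With 1 library per domain, no spread is at hand to judge these differences.

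The summits of the 3 domains lay close together. The selection rule brings this about in part, since it kept only regions whose peaks overlap. The 3 summits spanned a median of 42 bp in contig regions (quartiles 21 and 94) and 64 bp in scaffold regions (34 and 146). Both medians were under the fragment lengths of 145, 140 and 140 bp used in the native calls, and under the sheared mean of 200 bp. They lay within 50 bp in 56.5% of contig regions (interval 54.3 to 58.7) and in 40.8% of scaffold regions (38.9 to 42.7). Pairs of domains gave medians of 24 to 25.5 bp in contig regions and 36.5 to 38 bp in scaffold regions, so no pair stood apart. Among the 1718 contig regions and 2201 scaffold regions with exactly 1 peak of each domain, the span was 38 and 56 bp.

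Summit distance moved with depth. Contig regions whose weakest pileup was under 15 fragments had a median span of 70 bp, and those at 50 or more had 17.5 bp. Scaffold regions had 79 and 17.5 bp in the same classes. In the classes of 15 to under 25 and 25 to under 50 fragments, the medians were 47 and 28 bp in contig regions and 62 and 36 bp in scaffold regions. Pileups of 50 or more made up 15.8% of contig regions and 2.54% of scaffold regions, and the part of depth in the overall difference was not tested.

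**Figure D3:**
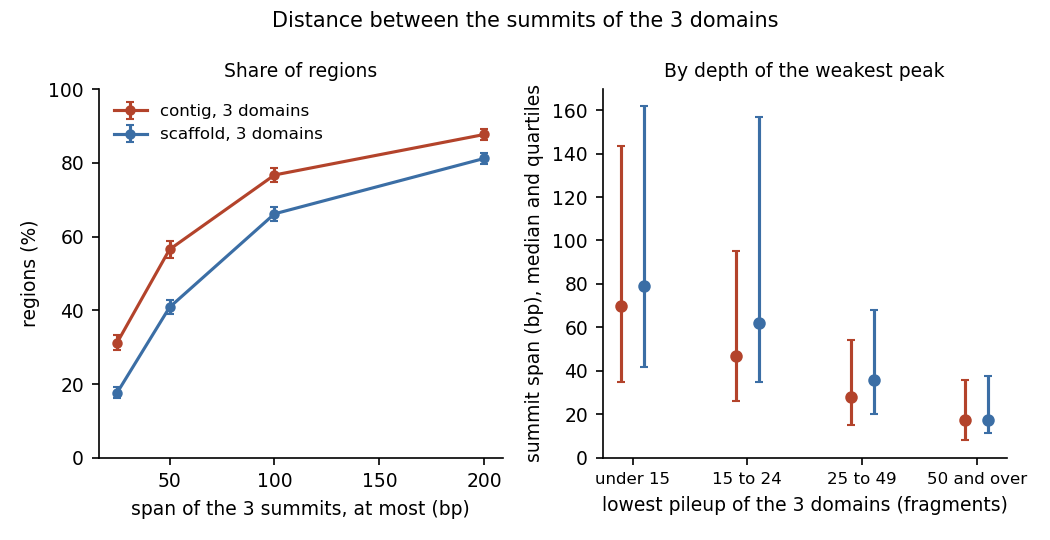
Left, percent of regions with all 3 domains whose 3 summits lie within the distance on the x axis (bp), with exact 95% intervals; right, median span of the summits (bp) with quartiles, by the lowest pileup of the 3 domains (fragments). Contig regions lie above scaffold regions at each distance on the left, and on the right the medians fall to 17.5 bp for both at 50 fragments or more.

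A stretch held by peaks of all 3 domains existed in 1935 of the 1956 contig regions, with a median length of 180 bp. The other 21 regions (1.07%, interval 0.666 to 1.64) were chains in which peaks overlapped in turn without a base common to all 3, against 58 of 2600 scaffold regions (2.23%, interval 1.70 to 2.87). The regions just inside the overlap rule were AFFK01000805 (432 to 778), with folds of 4.98, 4.29 and 7.31, and AFFK01002759 (473 to 860), with 3.98, 2.74 and 8.17. Each had 5 bp common to the 3 domains. Just outside it, AFFK01016813 (1629 to 2090) had CopiaMBD2 and CopiaMBD3 folds of 5.37 and 3.77, and a CopiaMBD1 peak of fold 3.48 began after a gap of 2 bp. On AFFK01018615 (10704 to 10946) the CopiaMBD1 and CopiaMBD2 folds were 4.49 and 5.73, and a CopiaMBD3 peak of fold 3.39 ended with a gap of 2 bp. Of 2080 contig regions with 2 domains, 140 had a peak of the missing domain less than 200 bp away.

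The regions were spread over many contigs. They lay on 1520 of the 3947 contigs with any native peak, and 1242 contigs held 1 of them. On 823 contigs a region with all 3 domains was the only native region. Another 196 contigs held 2 such regions, and 82 held 3 or more, which together carried 322 regions.

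AFFK01015044 and AFFK01020101 held the most, 9 each, out of 28 and 36 native regions on those contigs. On AFFK01015044 they stretched from 4249 to 58486, and their median folds for the 3 domains were 4.31, 5.97 and 5.79. On AFFK01020101 they stretched from 15189 to 84085, with medians of 4.85, 5.48 and 5.77. AFFK01016938 and AFFK01020346 held 8 each, and none of these 4 contigs had an amplified-DNA peak. The median gap between neighbouring regions of a contig was 1042 bp, with quartiles of 277.5 and 4302.5 bp.

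AFFK01016938 also carried the widest region (5220 to 8334), 3115 bp where CopiaMBD1 had 3 peaks, CopiaMBD2 had 3 and CopiaMBD3 had 2, with folds of 5.72, 6.97 and 13.0. The next widest were AFFK01020418 (1809 to 3754) with folds of 7.66, 8.95 and 11.7, and AFFK01021056 (3142 to 5040) with 3.25, 6.18 and 8.13. On AFFK01020418 CopiaMBD3 had 4 separate peaks and CopiaMBD2 a single one.

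Contig lengths are not in the peak lists, so the end of the last native peak on a contig was used as its span. This is a lower bound on the length. Regions with all 3 domains made up 31.4% of native regions on contigs spanning under 1 kb (770 of 2452, interval 29.6 to 33.3) and 30.5% at 1 to under 3 kb (448 of 1467). The share was 21.0% at 3 to under 10 kb (260 of 1239) and 20.3% at 10 kb or more (478 of 2358, interval 18.67 to 21.95). Median CopiaMBD3 fold in the same classes was 7.08, 6.98, 6.79 and 6.23. In the CopiaMBD1 list, 39.6, 37.5, 14.2 and 9.21% of those with all 3 domains had a control level 3 or more times the lowest, and its part in the shares was not tested. Regions beginning within 100 bp of the first base of a contig were 14.3% of those with all 3 domains (279 of 1956, interval 12.7 to 15.9) and 5.23% of contig regions with 1 or 2 domains (291 of 5560, interval 4.66 to 5.85). The first class merges at least 3 peaks and is wider by the rule, with median widths of 341 and 192 bp. The part of width and of contig span in these 2 shares was not tested.

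The HaloTag-only control was raised at many contig regions. The control level at a summit was recovered from pileup and fold and is given relative to the lowest of its list, which is the genome-wide expectation. Levels of at least 3 times the lowest were found at 28.3, 27.8 and 32.4% of contig regions in the CopiaMBD1, CopiaMBD2 and CopiaMBD3 lists, and at 11.5, 11.8 and 17.2% of scaffold regions. Levels of at least 10 times were found at 9.25, 8.998 and 8.74% of contig regions and at 0.923, 0.962 and 0.923% of scaffold regions. The intervals of the contig and scaffold regions were apart in every list, as the plot of control levels shows. The lists share 1 HaloTag-only library, so they do not measure the control separately. Contig regions of 1 or 2 domains had 2.91, 1.95 and 0.812% at 10 times or more.

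Folds were smaller where the control was high. The control is part of the divisor of the fold, so they are not independent. In contig regions with a control of at least 10 times the lowest, median fold was 3.36, 3.80 and 4.55 for the 3 domains, against 4.73, 5.98 and 7.07 in the other contig regions. The highest CopiaMBD1-list level, 68.8 times the lowest, was on AFFK01017866 (14 to 595), picked after its values were seen, where folds of 2.13, 2.36 and 2.65 came from pileups of 276, 279 and 279. Those pileups lie near 290, 280 and 280, the most that keeping 1 tag per position and strand allows, so the folds there are capped. All 3 lists had a control level 3 or more times the lowest in 444 contig regions (22.7%, interval 20.9 to 24.6) and 147 scaffold regions (5.65%, interval 4.80 to 6.61). Among the 832 contig and 1246 scaffold regions with low control in every list, median folds were 4.98, 6.44 and 7.55 on contigs and 4.86, 5.96 and 6.98 on scaffolds.

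**Figure D4:**
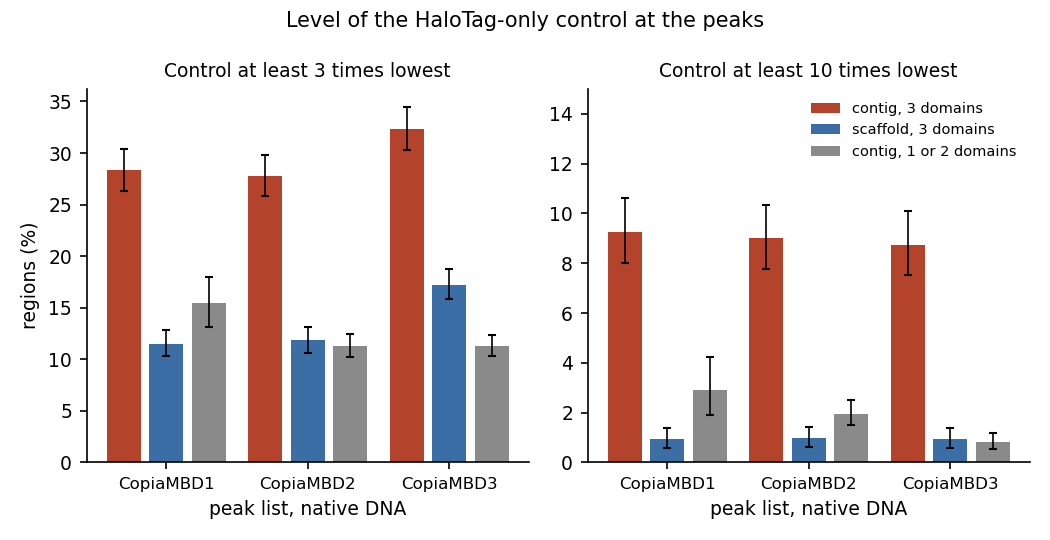
Percent of regions whose HaloTag-only control level at the summit is at least 3 times (left) or 10 times (right) the lowest of the list, in each native peak list, with exact 95% intervals as error bars. Bars are contig regions with all 3 domains, scaffold regions with all 3 domains and contig regions with 1 or 2 domains; at 10 times, contig regions with all 3 domains reach 8.74 to 9.25% and scaffold regions 0.923 to 0.962%.

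On amplified DNA these regions, like native regions of every class, were nearly all without a peak. The amplified-DNA lists were short, with 358, 133 and 169 peaks for CopiaMBD1, CopiaMBD2 and CopiaMBD3. The native lists held 7461, 14001 and 15714. An amplified-DNA peak of any domain overlapped 27 contig regions (1.38%, interval 0.912 to 2.002), against 0.566% of all 21205 native regions. The share was 1.12% in scaffold regions with all 3 domains (29 of 2600, interval 0.748 to 1.60) and 0.270% in contig regions with 1 or 2 domains (15 of 5560, interval 0.151 to 0.445). The intervals of contig and scaffold regions with all 3 domains overlapped, and that of contig regions with 1 or 2 domains lay below both. Amplified-DNA lists did not enter the selection rule. Wider regions have more room for an overlap: per Mb of region, 34.2 contig regions with all 3 domains carried a peak, against 24.9 scaffold regions with all 3 domains, 12.3 contig regions with 1 or 2 domains, 19.7 scaffold regions with 1 or 2 domains and 21.2 of all native regions.

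By domain, amplified CopiaMBD1 peaks overlapped 6 contig regions (0.307%, background 0.207% of all native regions). CopiaMBD2 peaks overlapped 9 (0.460%, background 0.156%) and CopiaMBD3 peaks 15 (0.767%, background 0.25%). The CopiaMBD1 background lies inside the interval of the contig share (0.113 to 0.666), and those of the other 2 lie below theirs (0.211 to 0.872 and 0.430 to 1.26). Per Mb, the 3 domains had 7.60, 11.4 and 19.0 such contig regions, against 7.77, 5.83 and 9.36 of all native regions, so the CopiaMBD1 value was not above the background on that scale. Of the 114 amplified-DNA peaks on contigs, 30 lay in regions with all 3 domains, 16 in other native regions and 68 in no native region.

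The share with an amplified-DNA peak moved with the control level on native DNA. Where the median control level over a region's lists was at least 3 times the lowest, it was 2.73% of contig regions (15 of 549, interval 1.54 to 4.47) and 3.33% of scaffold regions (9 of 270, interval 1.54 to 6.23). Below 3 times it was 0.853% of contig regions (12 of 1407, interval 0.441 to 1.49) and 0.858% of scaffold regions (20 of 2330, interval 0.525 to 1.32). Below 2 times it was 0.716% of contig regions (8 of 1118) and 0.547% of scaffold regions (10 of 1829). The intervals of contig and scaffold regions overlapped in each of these classes. Contig regions of 1 or 2 domains had 0.840% (5 of 595) and 0.201% (10 of 4965).

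**Figure D5:**
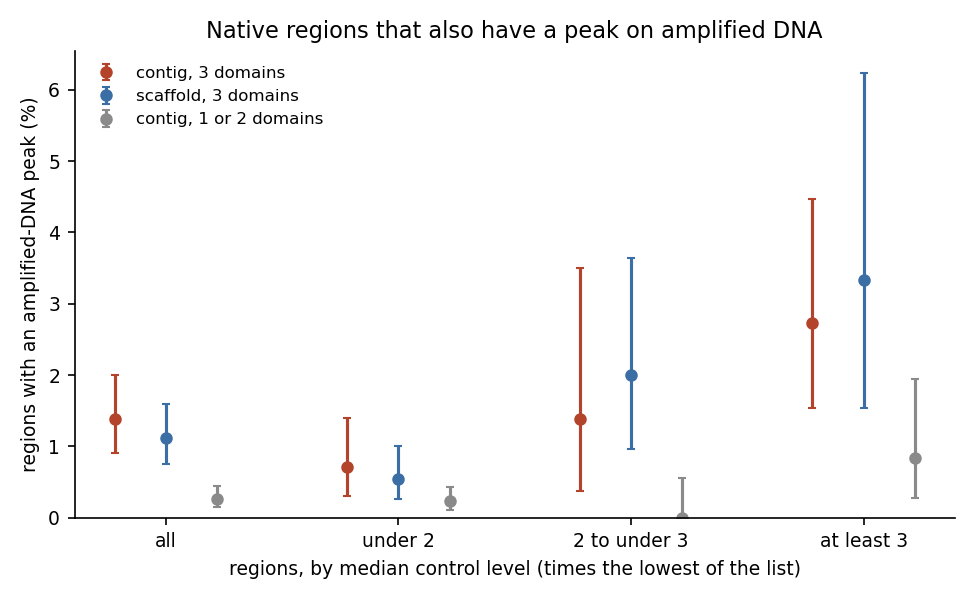
Percent of native regions overlapping an amplified-DNA peak of any domain, for all regions and by the median HaloTag-only control level over the region's native lists (times the lowest of each list), with exact 95% intervals. Points are contig regions with all 3 domains, scaffold regions with all 3 domains and contig regions with 1 or 2 domains; the first 2 overlap in every class, at 2.73 and 3.33% where the control is at least 3 times the lowest.

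In 3 contig regions there were amplified-DNA peaks of a pair of domains. On AFFK01005886 (1219 to 1510) the 3 native folds were 10.2, 14.8 and 31.6. Its amplified-DNA folds were 3.80 for CopiaMBD2 and 5.27 for CopiaMBD3, with summits that lay 6 and 8 bp from the native summits of the same domain. On AFFK01019883 (5423 to 5801) native folds were 5.48, 4.18 and 11.0, and amplified-DNA folds were 4.22 for CopiaMBD2 and 3.79 for CopiaMBD3, with summits 14 and 8 bp away. On AFFK01009481 (1 to 518) native folds were 4.92, 6.69 and 7.03, and amplified-DNA folds of 1.52 for CopiaMBD1 and 1.70 for CopiaMBD2 sat on amplified-DNA control levels of 23.6 and 23.7 times the lowest.

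The other high amplified-DNA folds in contig regions came from 1 domain each. For CopiaMBD1 they were 4.02 on AFFK01002998 (22 to 320), 3.59 on AFFK01020698 (3765 to 4020), 2.88 on AFFK01014466 (2294 to 2600) and 2.18 on AFFK01002590 (63 to 322), where native CopiaMBD1 folds were 3.73, 5.77, 4.12 and 5.88. For CopiaMBD2 they were 6.70 on AFFK01010709 (10 to 303), 5.48 on AFFK01015531 (100 to 370) and 3.05 on AFFK01005862 (707 to 1048), where native CopiaMBD2 folds were 13.4, 6.68 and 3.24. For CopiaMBD3 they were 7.20 on AFFK01007043 (1041 to 1235), 4.73 on AFFK01013476 (7770 to 8231), 4.50 on AFFK01007978 (419 to 702) and 3.79 on AFFK01006578 (94 to 652), where native CopiaMBD3 folds were 6.69, 3.77, 8.31 and 5.98. On AFFK01002998 the amplified-DNA fold belonged to CopiaMBD1, whereas its highest native fold, 15.7, was that of CopiaMBD3. Some of these amplified-DNA summits lay far from the native summit of the same domain. The distance was 316 bp on AFFK01014466, 205 bp on AFFK01005862, 188 bp on AFFK01013476 and 153 bp on AFFK01007978. It was 5 to 85 bp in the other regions of this paragraph.

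Amplified-DNA folds in contig regions had medians of 2.53 for CopiaMBD1 (6 peaks), 3.05 for CopiaMBD2 (9 peaks) and 2.83 for CopiaMBD3 (15 peaks). Their summits lay a median of 19.5 bp from the native summit of the same domain, with quartiles of 6.5 and 129.25 bp. Where amplified DNA gave a peak, the contig regions had native medians of 4.53, 6.04 and 7.55, against 4.64, 5.78 and 6.79 in those without, and both sets of medians lie inside the quartiles of the regions without. The median native control levels were 3.76, 3.14 and 3.05 times the lowest with such a peak, against 1.61, 1.68 and 1.83 without, and their part in the overlap was not tested.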

How the data were processed

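The members and the alternatives were chosen with earlier results of these data known. Per the file headers, the authors called peaks with MACS2 2.1.0.20150731 for each domain at a q-value of 0.05, native libraries against native HaloTag-only DNA and amplified against amplified, sampling the larger library down and keeping 1 tag per position. The deposited pileup is a coverage signal in fragments, taken as deposited. As deposited, the fold is a ratio of (pileup + 1) to (local control + 1). The deposited −log10 q and −log10 p values belong to each summit. The aligner and genome build of these calls are not given in the sources used here. Positions are 1-based, as deposited.

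Lists were merged at an overlap of 1 bp with Python 3.11.15, pandas 2.3.3 and numpy 2.4.6; intervals came from scipy 1.17.1 and plots from matplotlib 3.10.9. The merging was tested on simulated lists. Control level was (pileup + 1) / fold − 1. Control windows of 1 and 10 kb may exceed many contigs, but contig lengths were not known. By the end of the last native peak, 770 members lay on contigs spanning under 1 kb and 1478 under 10 kb. With 1 tag per position and strand, pileup cannot pass 2 fragment lengths, 290, 280 and 280 for the 3 native lists.

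Regions were named by a rule: the 10 highest by weakest fold, the highest per domain, those with amplified-DNA peaks of several domains or among the 5 highest amplified-DNA folds of a domain, the widest, the contigs with most members, and those nearest the overlap threshold. CG content, shared sequence and the MethylC-seq sample were not analysed here.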

Additional observations from a re-analysis of the deposited data

How the results depend on the processing

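No paired analysis was possible because each group had 1 library. Merging the filtered lists anew gave, in place of 1956 contig regions with all 3 domains, 568 with native peaks of −log10 q of at least 10, 546 with native peaks of fold of at least 5, 1220 with a control level under 3 times the lowest, and 1186 on sequences whose peaks span at least 1 kb. Under the same 4 settings the share of contig regions holding all 3 domains, 26.0% above, was 18.5, 12.8, 18.6 and 23.4%, against 6.22, 7.68, 15.2 and 19.0% on scaffolds, and with equal numbers of native peaks it was 27.8 against 18.3%. The median summit span, 42 bp above, was 23, 32, 52 and 50 bp under those 4 settings and 36 bp with equal numbers, against 33, 43, 67, 64 and 54 bp on scaffolds. The contig value stayed above (share) or below (span) the scaffold value in each. The share with an amplified-DNA peak, 1.38% above, was 0.820% with a control under 3 times the lowest and 0.409% with amplified-DNA peaks of fold of at least 4, resting on 10 and 8 regions. It was below the scaffold share at −log10 q of at least 10 (1.76 against 2.69%), at fold of at least 5 (1.28 against 1.33%) and on sequences of at least 1 kb (1.01 against 1.12%), so its order against scaffolds depends on the setting. Requiring 50 bp common to the 3 domains, or a pileup under 0.9 times its ceiling (a setting added after the data were seen), kept all 4 values within their intervals or within 1.5 times the count. Requiring 50 bp of overlap with amplified-DNA peaks, or allowing a gap of 200 bp, gave 1.33 and 1.43%. CG windows and sequence identity were not run.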

Other observations

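Some pileups reached the most that the processing allows. The highest native pileups were 286, 280 and 280 fragments for CopiaMBD1, CopiaMBD2 and CopiaMBD3, beside ceilings of 290, 280 and 280 set by keeping 1 tag per position and strand. At least 1 domain came within 0.9 of its ceiling in 12 contig regions (0.613%) and in 1 scaffold region with all 3 domains (0.0385%). Median folds at those peaks in contig regions were 3.02, 2.92 and 3.69, against 4.64, 5.80 and 6.79 at the other peaks, and rest on 5, 9 and 11 regions.

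The lowest control level recovered from each native list, 1.87, 1.79 and 1.65 fragments, equals the tags used times the fragment length divided by the effective genome size to 3 digits. Of the 6 possible orders of the 3 folds within a contig region, CopiaMBD3 over CopiaMBD2 over CopiaMBD1 was found in 882 regions (45.1%) and in 1044 scaffold regions (40.2%). The calls of the domains differ in depth and in the sampled control, and the order was not tested.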
